A study of Mus musculus with 12 samples.

Results

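Chemokine ligands are small secreted or membrane-anchored proteins that direct the migration of leukocytes, and their transcripts were followed here in mammary tumors of MADM-mutant mice. Members were taken by symbol: every row named Ccl or Cxcl with a number and, in some cases, a letter, plus Xcl1, Cx3cl1 and Ppbp, and without Ccl20. This gave 39 of the 47593 genes in the deposited matrix. RNA from 12 tumors of 9 animals had been sequenced, with 1 tumor from each of 7 mice, tumors 3 and 4 from another mouse and tumors 10, 11 and 12 from the remaining mouse. All tumors carried the genotype label MADM RG;GR alleles, mixed background, no treatment was given, and no normal gland was among the samples used here, so the only grouping that could be tested was the animal. In these female mice MMTV-Cre, active mainly in mammary epithelium, recombined chromosome 11 so that rare cells lost Brca1 and p53 while the surrounding cells stayed heterozygous. The age of each mouse at collection is not given in the sources used here. A piece of whole tumor was homogenised, so the values mix tumor cells with stroma and leukocytes, and fewer cells of a type cannot be told apart from less RNA per cell. Levels are TPM, a measure of relative transcript abundance whose values are scaled for gene length and can be compared between genes. Sums per tumor lay between 999770 and 999909, and the read depth behind a TPM value is unknown.

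Chemokines are classed by the spacing of their conserved cysteines into CC, CXC, CX3C and XC ligands, and each binds one or several G protein-coupled receptors on leukocytes. CC ligands such as Ccl2 draw monocytes, CXC ligands with the amino acids ELR before the cysteines draw neutrophils through Cxcr2, and the interferon-inducible CXC ligands draw activated T and NK cells through Cxcr3. In tumors they are made by cancer cells, fibroblasts, endothelium and the leukocytes themselves, and a bulk measurement does not separate these sources.

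One tumor went against its tissue label. In tumor 2 the 5 epithelial markers (Epcam, Cdh1, Krt8, Krt18 and Cldn4) summed to 1.48 TPM and Epcam was listed at 0, while the 5 B lymphocyte markers summed to 4662 TPM. In tumor 8 the epithelial sum was 152 TPM, and in the other 10 tumors it ran from 2829 to 7612 TPM. Tumor 8 also had the highest sum of the 6 fibroblast markers, 3115 TPM, followed by tumor 4 with 2851 TPM and tumor 3 with 1085 TPM. Tumor 2 was kept, and results that rest on it are given with and without it.

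Most chemokine ligands were detected somewhere, and fewer in every tumor. At 1 TPM or more in at least 1 tumor, 36 of the 39 ligands counted as expressed, against 43.4% of all 47593 genes. Of these, 31 reached 10 TPM in some tumor and 12 reached 100 TPM. Ligands at 1 TPM or more in all 12 tumors numbered 15, against 25.2% of all genes, and 20 in the 11 tumors without tumor 2. Ccl28 and Cxcl15 stayed under 1 TPM throughout and Ccl26 was listed at 0 in all 12 tumors. The sum of the 39 ligands ran from 99.2 TPM in tumor 2 to 3279 TPM in tumor 9, tumor 8 came next at 2730 TPM, and the other 9 tumors lay between 701 and 1701 TPM. The ligand with the highest TPM also changed from tumor to tumor. It was Cxcl16 in tumors 1, 5, 6 and 11, Ccl8 in tumors 3 and 4, Cxcl10 in tumors 7, 10 and 12, Ccl2 in tumor 8, Ccl9 in tumor 9 and Ccl21a in tumor 2.

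**Figure D1:**
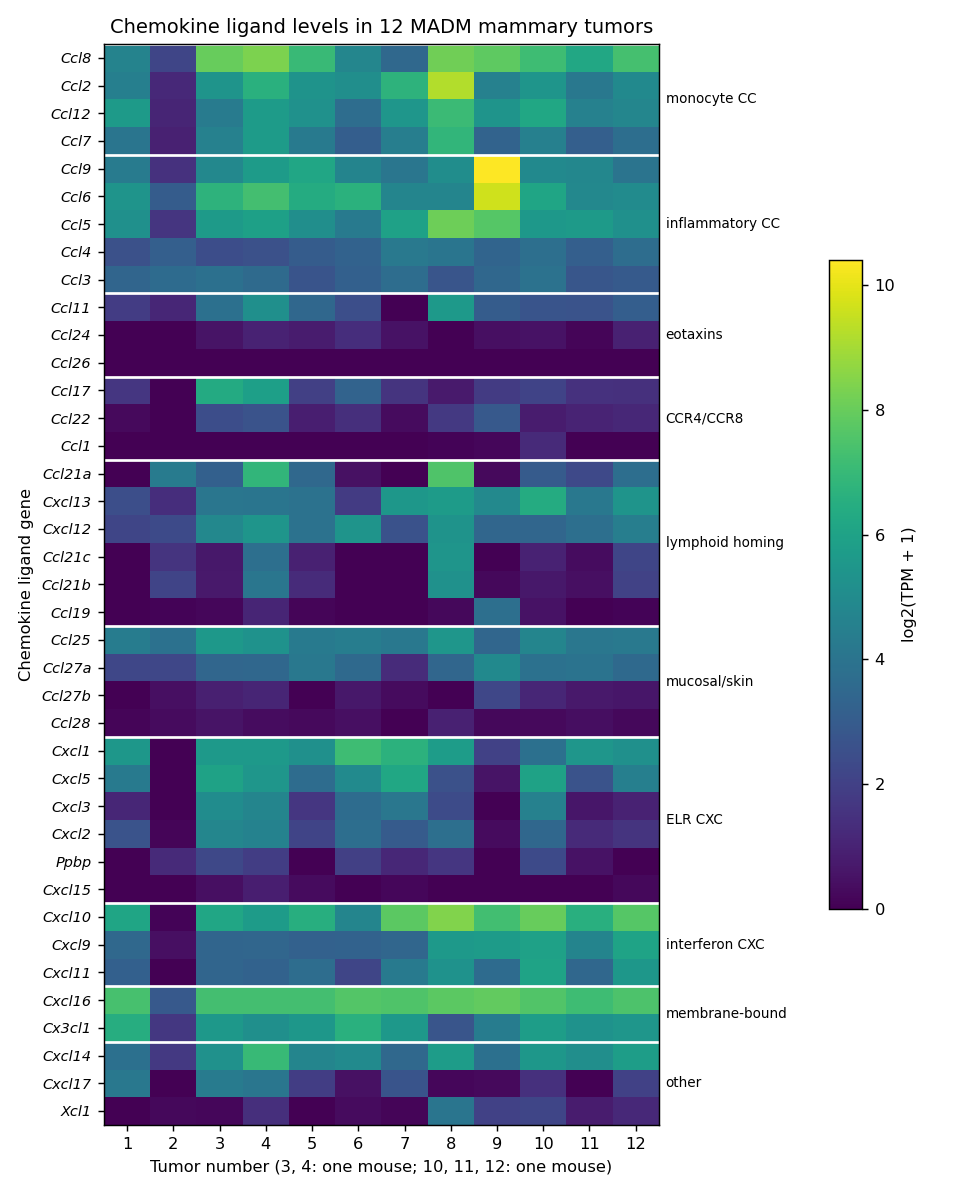
Level of each of the 39 ligands (rows, grouped by role) in each of the 12 tumors (columns), as log2(TPM + 1) in colour. Tumor 2 is dark in most rows, tumor 8 is bright in the monocyte-attracting CC ligands and tumor 9 in Ccl9 and Ccl6.

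Single tumors held the peaks. Of the 33 ligands with a mean of 1 TPM or more, 10 (30.3%) had their highest value in tumor 8, where 11.8% of all 16779 genes passing that filter did. Among these 10, Xcl1 passed the filter only through tumor 8 (15.6 TPM), and 32 ligands passed without that tumor. The Ccl21a, Ccl21b and Ccl21c rows, also among the 10, are near-identical copies. Tumor 9 held the highest value of 6 ligands (18.2%), against 14.1% of genes, and tumor 3 that of 5, against 12.1%. Ccl19, 1 of the 6 in tumor 9, passed the filter only through that tumor (12.9 TPM), and 32 ligands passed without it. Genes in the background could pass in the same way, so these counts are descriptions and no test. Tumor 10 held that of 4, against 4.52%, tumor 4 that of 3 (9.09%), against 2.63%, and tumor 2 held none, against 20.4% of genes. It alone held the lowest value of 20 ligands (60.6%), where 28.9% of genes were lowest. Tumor 9 alone was lowest in 1 ligand (3.03%), against 20.6% of genes. The 6 ligands that did not pass the filter were Ccl27b, Ccl24, Ccl28, Cxcl15, Ccl1 and Ccl26.

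**Figure D2:**
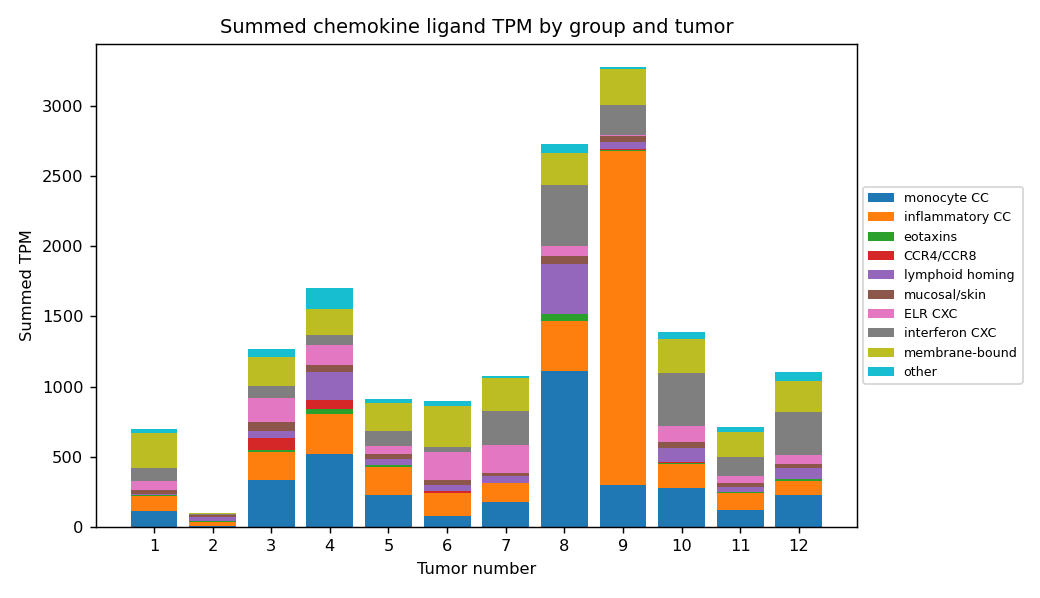
Summed TPM of the chemokine ligands in each tumor, stacked by role. The inflammatory CC ligands make up most of the bar of tumor 9 (2382 of 3279 TPM) and the monocyte-attracting CC ligands are the largest block of tumor 8 (1113 of 2730 TPM).

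The monocyte-attracting CC ligands Ccl2, Ccl7, Ccl8 and Ccl12, of which Ccl2, Ccl7 and Ccl12 act through Ccr2, were highest as a group in tumor 8. Their sum was 1113 TPM there, 521 TPM in tumor 4 and 6.79 TPM in tumor 2, with the other tumors at 80.5 to 333 TPM. All 4 genes were lowest in tumor 2. They lie in one cluster on chromosome 11 and, together with Ccl11, placed between Ccl7 and Ccl12, and Ccl1, fall between positions 82035571 and 82305690 of GRCm38. Ccl2 (ENSMUSG00000035385, 82035571 to 82037453, plus strand), the main attractant of inflammatory monocytes, ran from 1.27 TPM in tumor 2 over a median of 36.8 TPM to 584 TPM in tumor 8. Tumor 8 stood clear of all others, at 5.49 times the 106 TPM of tumor 7, and tumors 1, 9 and 11 were at 16.8 to 22.7 TPM. The mean over mice was 101 ± 184 TPM (SD, n = 9 mice). Ccl7 was also highest in tumor 8, running from 0.925 TPM in tumor 2 over a median of 17.0 TPM to 115 TPM there, and its second highest tumor was tumor 4 at 51.8 TPM, with tumor 7 at 20.9 TPM. Ccl12, a further Ccr2 ligand found in mice, ran from 1.12 TPM in tumor 2 over a median of 39.3 TPM to 134 TPM in tumor 8, with 73.3 TPM in tumor 10. Ccl8 was distributed differently within the group. It was lowest in tumor 2 at 3.47 TPM, had a median of 137 TPM and peaked at 322 TPM in tumor 4. Tumors 8, 3 and 9 followed at 280, 249 and 223 TPM, whereas tumor 7, second in Ccl2, had only 10.4 TPM of Ccl8. The macrophage markers (5 genes) were also lowest in tumor 2 (156 TPM) and highest in tumor 8 (1658 TPM) in sum, and 4 of the 5 were lowest in tumor 2. The part of macrophage or fibroblast content in these differences was not tested.

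Tumor 9 was set apart by 2 neighbouring CC ligands. Ccl9 and Ccl6 are related mouse chemokines of myeloid cells that bind Ccr1, and their genes are 9245 bases apart on the minus strand of chromosome 11. Ccl9 (ENSMUSG00000019122, 83572919 to 83578636) ran from 1.82 TPM in tumor 2 over a median of 27.3 TPM to 1353 TPM in tumor 9. The second highest tumor was tumor 5 at 70.1 TPM, so that tumor 9 was 19.3 times higher than any other. Ccl6 (ENSMUSG00000018927, 83587882 to 83593087) ran from 7.17 TPM in tumor 2 over a median of 54.6 TPM to 807 TPM in tumor 9, 5.18 times the 156 TPM of tumor 4. Together these genes made up 65.9% of the ligand sum of tumor 9. Without them the sum of tumor 9 was 1119 TPM, near the median of 1102 TPM over all ligands in the 11 tumors without tumor 2. As means over mice, Ccl9 was at 176 ± 442 TPM and Ccl6 at 140 ± 253 TPM (SD, n = 9 mice), spreads that come mostly from tumor 9.

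The other CC ligands of that stretch of chromosome 11 did not share the peak. Ccl3 and Ccl4, which attract macrophages and T cells and lie on the far side of Ccl6 from Ccl9, were the steadiest of the group. Ccl3 ran from 5.60 TPM in tumor 5 over a median of 9.92 TPM to 14.3 TPM in tumor 10, and tumor 9 had 10.3 TPM. Ccl4 ran from 4.57 TPM in tumor 3 over a median of 8.25 TPM to 17.2 TPM in tumor 7, and tumor 9 had 9.18 TPM. Tumor 2, in which 20 of the 39 ligands reached 1 TPM but only 3 reached 10 TPM, had 11.5 TPM of Ccl3 and 7.78 TPM of Ccl4. Ccl5 (ENSMUSG00000035042), a product of activated T and NK cells, was high in both tumors 8 and 9. It ran from 2.03 TPM in tumor 2 over a median of 47.7 TPM to 276 TPM in tumor 8, with 202 TPM in tumor 9 and at most 61.7 TPM elsewhere. The T lymphocyte markers (5 genes) summed to 65.4 TPM in tumor 8 and 81.7 TPM in tumor 9, against 3.26 to 19.9 TPM in the other tumors, and the NK markers (3 genes) to 32.1 and 7.07 TPM against at most 3.83 TPM. Cd4 alone gave 41.6 TPM of the T lymphocyte sum of tumor 8. Cd3g and Cd3d were second highest there (8.74 and 4.82 TPM). Cd3e, at 3.40 TPM, was close to the 3.34 TPM of tumor 12, and Cd8a, at 6.87 TPM, was below the 7.05 TPM of tumor 10. The part of T and NK cells in the Ccl5 values was not tested. All 12 ligands on chromosome 11, Cxcl16 among them, lie between Trp53 and Brca1, on the chromosome arm that MADM recombination exchanges.

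Promoter windows of Ccl9 and Ccl6 are shown because the genes are neighbours with the same peak in tumor 9. Each window holds the 250 bases before the RefSeq start, 5′ to 3′ on the minus strand, from GRCm38.p6. Capitals mark matches to a kappaB motif, the 10-base binding motif of NF-kappaB, searched on both strands. The windows are chr11:83578637-83578886 for Ccl9 and chr11:83593088-83593337 for Ccl6.
Ccl9: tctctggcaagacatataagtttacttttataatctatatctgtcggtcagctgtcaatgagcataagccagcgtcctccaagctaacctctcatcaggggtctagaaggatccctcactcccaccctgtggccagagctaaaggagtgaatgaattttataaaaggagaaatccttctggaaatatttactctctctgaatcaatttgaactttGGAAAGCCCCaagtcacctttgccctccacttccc
Ccl6: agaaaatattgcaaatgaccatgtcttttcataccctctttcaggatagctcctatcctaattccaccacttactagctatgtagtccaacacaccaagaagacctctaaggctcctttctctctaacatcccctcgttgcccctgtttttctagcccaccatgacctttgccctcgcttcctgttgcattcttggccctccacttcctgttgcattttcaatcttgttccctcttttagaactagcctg
The Ccl9 window holds 1 match, starting 35 bases before the start, and the Ccl6 window none. Of 32851 mouse promoter windows of this length 3.90% held a kappaB match, as did 5 of the 27 ligands that the RefSeq table listed. A match describes letters and was not tested as a binding site.

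**Figure D3:**
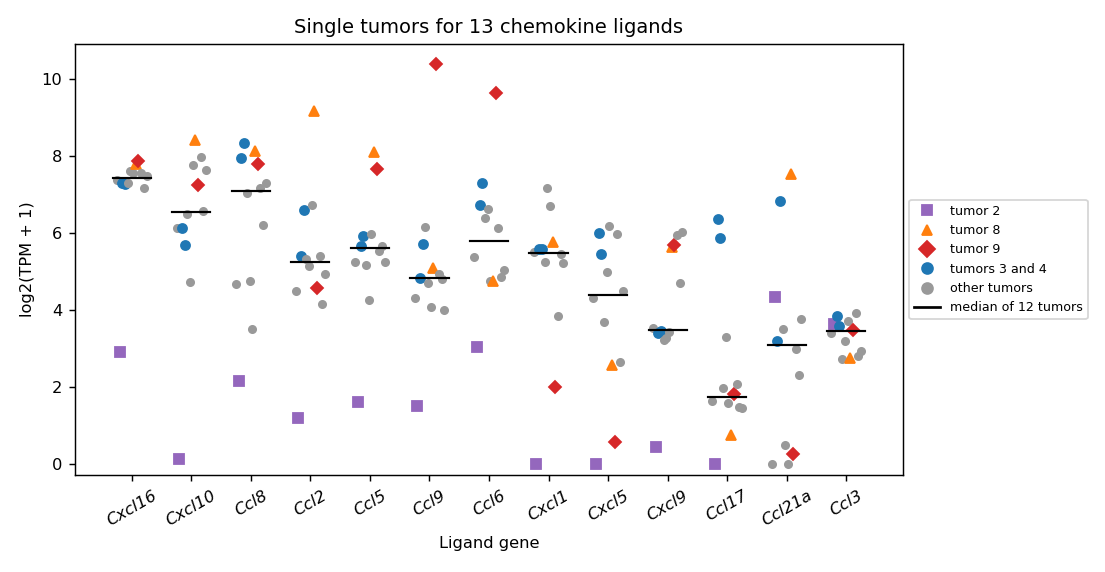
Single tumors for 13 ligands, as log2(TPM + 1), with a bar at the median of the 12 tumors. Tumor 9 (red) is far above the rest in Ccl9 and Ccl6 and second lowest in Cxcl1 and Cxcl5, tumor 8 (orange) leads in Ccl2 and Ccl5, and tumors 3 and 4 (blue) lead in Ccl17.

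The neutrophil-attracting ELR CXC ligands were at their lowest in tumors 2 and 9. The 6 genes (Cxcl1, Cxcl2, Cxcl3, Cxcl5, Cxcl15 and Ppbp) summed to 1.45 TPM in tumor 2 and 3.72 TPM in tumor 9, against 50.9 to 200 TPM in the other 10. Cxcl1 (ENSMUSG00000029380), the most abundant of them, was listed at 0 in tumor 2, had a median of 43.9 TPM and reached 143 TPM in tumor 6. Tumor 9 was second lowest at 3.01 TPM, tumor 10 followed at 13.5 TPM and tumor 7 was second highest at 103 TPM. Cxcl5, an epithelial ligand of Cxcr2, was listed at 0 in tumor 2 and at 0.474 TPM in tumor 9, had a median of 20.1 TPM and reached 71.9 TPM in tumor 7. Tumors 8 and 11 were also low in Cxcl5, at 4.94 and 5.29 TPM, although their Cxcl1 was at 53.3 and 43.3 TPM. Cxcl2 ran from 0.101 TPM in tumor 2 over a median of 6.22 TPM to 26.5 TPM in tumor 3, with 0.232 TPM in tumor 9. Cxcl3 was listed at 0 in tumor 2 and at 0.0095 TPM in tumor 9, had a median of 3.17 TPM and reached 31.9 TPM in tumor 3. Tumors 3 and 4, of the same mouse, were the highest in both Cxcl2 and Cxcl3. Ppbp, a product of platelets, did not exceed 4.01 TPM (tumor 10), and Cxcl15, known from lung, did not exceed 0.833 TPM. The neutrophil markers (5 genes) were low in the same tumors, with sums of 22.2 TPM in tumor 9 and 27.8 TPM in tumor 2 against 120 to 692 TPM elsewhere. S100a8 and S100a9 were lowest in tumor 9, at 1.34 and 2.31 TPM, and next lowest in tumor 2, at 10.8 and 15.5 TPM. Csf3r made up most of the sum of tumor 9, at 17.5 TPM, and lay above the 10.0 to 14.2 TPM of tumors 1, 5 and 11, and Ly6g was listed at 0 in 5 tumors, tumors 2 and 9 among them. The part of neutrophil content in the ELR values was not tested.

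Promoter windows of Cxcl1, Cxcl2 and Cxcl3 are shown because these genes were low in the same tumors. They are 250 bases long, 5′ to 3′ on the plus strand of chromosome 5 (GRCm38.p6, RefSeq), with kappaB matches in capitals, at chr5:90890995-90891244, chr5:90903649-90903898 and chr5:90785851-90786100.
Cxcl1: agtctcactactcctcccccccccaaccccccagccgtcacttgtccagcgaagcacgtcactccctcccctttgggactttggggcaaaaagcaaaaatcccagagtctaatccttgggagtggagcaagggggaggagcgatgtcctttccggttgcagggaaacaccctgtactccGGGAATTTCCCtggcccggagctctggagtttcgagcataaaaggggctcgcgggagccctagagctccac
Cxcl2: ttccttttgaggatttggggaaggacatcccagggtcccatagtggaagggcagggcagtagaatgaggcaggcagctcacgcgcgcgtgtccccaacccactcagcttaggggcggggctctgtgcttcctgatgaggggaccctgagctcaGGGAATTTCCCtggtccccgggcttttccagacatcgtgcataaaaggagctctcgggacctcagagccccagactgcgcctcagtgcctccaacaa
Cxcl3: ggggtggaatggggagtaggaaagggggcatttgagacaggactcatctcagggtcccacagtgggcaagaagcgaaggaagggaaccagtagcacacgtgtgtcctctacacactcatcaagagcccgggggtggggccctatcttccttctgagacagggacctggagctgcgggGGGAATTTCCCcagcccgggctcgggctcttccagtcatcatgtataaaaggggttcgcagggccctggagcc
Each window holds 2 overlapping kappaB matches that form one run of capitals. The first starts 71 bases before the RefSeq start in Cxcl1, 97 bases in Cxcl2 and 73 bases in Cxcl3. Cxcl2 and Cxcl3 share sequence in their transcripts, with 4.57% of 75-base stretches of Cxcl2 and 2.78% of those of Cxcl3 in common, so reads there could have been assigned to either gene.

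The interferon-inducible CXC ligands Cxcl9, Cxcl10 and Cxcl11, all ligands of Cxcr3 that neighbour each other on chromosome 5, were highest in tumors 8, 10 and 12. Their sums were 429, 377 and 308 TPM there, 0.439 TPM in tumor 2 and from 37.8 TPM (tumor 6) to 244 TPM (tumor 7) among the rest. Cxcl10 (ENSMUSG00000034855) ran from 0.0851 TPM in tumor 2 over a median of 92.2 TPM to 342 TPM in tumor 8, with a mean of 126 ± 108 TPM (SD, n = 9 mice) and of 142 ± 104 TPM without tumor 2 (n = 8 mice). Cxcl9 divided the tumors into separate levels. It was at 64.0 TPM in tumor 12, 60.6 TPM in tumor 10, 50.8 TPM in tumor 9 and 48.5 TPM in tumor 8. Tumor 11 was intermediate at 25.2 TPM, 6 tumors lay between 8.33 and 10.5 TPM, and tumor 2 was at 0.354 TPM. Cxcl11 was listed at 0 in tumor 2, had a median of 10.8 TPM and peaked at 64.5 TPM in tumor 10, with 43.9 TPM in tumor 12 and 39.0 TPM in tumor 8. The 3 ligands did not order the tumors alike, since tumor 7 had 217 TPM of Cxcl10 but 9.82 TPM of Cxcl9, and tumor 9 had 50.8 TPM of Cxcl9 but 11.4 TPM of Cxcl11. Ifng, the T and NK cell interferon, reached 1 TPM only in tumor 9, at 2.28 TPM. Other interferon-response genes peaked elsewhere, Gbp2 in tumors 10 and 12 (340 and 286 TPM), Irf1 in tumors 12 and 10 (230 and 190 TPM) and Irf7 in tumors 9 and 11 (447 and 346 TPM). All of these were lowest in tumor 2 except Ifng, which was listed at 0 in 6 tumors, tumor 2 among them. Their part in the ligand values was not tested.

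Promoter windows of Cxcl10 and Cxcl9 are given because these ligands of the same receptor differed in tumor 7. They are 250 bases long, 5′ to 3′ on the minus strand of chromosome 5 (GRCm38.p6, RefSeq), at chr5:92348890-92349139 and chr5:92328080-92328329. Capitals mark kappaB matches and matches to an interferon-stimulated response element, GAAA, any 2 bases and GAAA again, each searched on both strands.
Cxcl10: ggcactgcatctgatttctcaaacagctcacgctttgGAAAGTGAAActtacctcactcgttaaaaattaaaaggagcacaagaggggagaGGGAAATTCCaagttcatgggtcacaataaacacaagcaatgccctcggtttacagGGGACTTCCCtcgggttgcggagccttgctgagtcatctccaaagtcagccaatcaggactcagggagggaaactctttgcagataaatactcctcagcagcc
Cxcl9: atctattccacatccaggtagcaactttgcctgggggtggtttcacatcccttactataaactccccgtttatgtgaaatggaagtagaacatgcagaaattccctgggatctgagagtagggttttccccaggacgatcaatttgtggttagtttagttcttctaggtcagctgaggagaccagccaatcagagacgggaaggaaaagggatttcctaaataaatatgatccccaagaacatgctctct
The Cxcl10 window holds the interferon motif 213 bases before the start and kappaB matches 159 and 103 bases before it, and the Cxcl9 window holds none of these letters. The interferon motif was present in 2.98% of all 32851 windows and in 3 of 27 ligand windows, those of Cxcl10, Cxcl14 and Ccl19. Cxcl10 overlaps Art3 on the opposite strand, and whether the quantification used strand is not given in the sources used here.

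The membrane-bound ligands Cxcl16 and Cx3cl1, which can hold cells that carry Cxcr6 and Cx3cr1 or be shed, differed in how much they varied. Cxcl16 (ENSMUSG00000018920) was the steadiest abundant ligand. It ran from 143 to 236 TPM in 11 tumors, with 6.46 TPM in tumor 2 and a median of 173 TPM over all 12. Its mean was 166 ± 66.1 TPM (SD, n = 9 mice), and 186 ± 29.7 TPM without tumor 2 (n = 8 mice). It overlaps Zmynd15 on the opposite strand, which had a median of 32.4 TPM. Cx3cl1 (ENSMUSG00000031778) ran from 2.20 TPM in tumor 2 over a median of 44.1 TPM to 96.9 TPM in tumor 6. It was second lowest in tumor 8 at 5.72 TPM and then in tumor 9 at 19.6 TPM, and tumor 1 was second highest at 87.2 TPM. Thus tumors 2 and 8, the pair with the lowest epithelial sums, were also the lowest in Cx3cl1, while Cxcl16 was at 221 TPM in tumor 8. The part of epithelial content in this was not tested.

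Of the ligands of Ccr4 and Ccr8, Ccl17 had both its highest values in tumors of the same mouse. Ccl17, made by dendritic cells and attractive to regulatory and helper T cells, was at 81.5 TPM in tumor 3 and 57.5 TPM in tumor 4. It did not exceed 8.80 TPM (tumor 6) in any other tumor, had a median of 2.34 TPM and was listed at 0 in tumor 2. Ccl22, the other Ccr4 ligand and a neighbour of Ccl17 and Cx3cl1 on chromosome 8, was at 5.30 TPM in tumor 4 and 4.50 TPM in tumor 3, behind 6.46 TPM in tumor 9 and ahead of all other tumors. The 5 dendritic markers summed to 44.3 and 45.3 TPM in tumors 3 and 4, within the 37.1 to 72.8 TPM of all tumors but tumor 2, and Itgax carried most of that sum. The other 4 went in different directions: in tumor 4 Flt3 was at 3.96 TPM against a median of 0.464 TPM, whereas Zbtb46 was at 1.56 and 2.24 TPM in tumors 3 and 4 against a median of 3.87 TPM. Clec9a was at 0.340 and 0.189 TPM against a median of 0.326 TPM, and Xcr1 at 0.605 and 0.517 TPM against 0.421 TPM. The part of dendritic cell content in the Ccl17 values was not tested. Ccl1, a Ccr8 ligand, reached 1.38 TPM in tumor 10 and was listed at 0 in 9 tumors.

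The eosinophil attractants, the eotaxins, were represented by Ccl11. It was listed at 0 in tumor 7, had a median of 6.32 TPM and was highest in tumors 8 (48.4 TPM) and 4 (35.5 TPM), which also had the highest fibroblast sums, while tumor 7 had a fibroblast sum of 143 TPM, the lowest after tumor 2. The part of fibroblast content was not tested. Ccl24 did not exceed 1.57 TPM.

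Lymphoid homing ligands, which organise lymphocytes and dendritic cells in lymph nodes, showed several separate patterns. The Ccl21 rows were high in tumors 8 and 4. Ccl21a was listed at 0 in tumors 1 and 7, had a median of 7.53 TPM and reached 184 TPM in tumor 8 and 113 TPM in tumor 4. Tumor 2 came next at 19.1 TPM. Ccl21b and Ccl21c peaked in the same tumors, at 37.4 and 41.6 TPM in tumor 8 and 16.2 and 13.1 TPM in tumor 4. The 3 rows are near-identical copies placed on unlocalised scaffolds, so the split of reads between them is uncertain. The lymphatic markers (3 genes) were highest in tumor 8, with a sum of 25.5 TPM, but tumor 4, at 10.6 TPM, lay level with tumors 2 and 9. Ccl19, the other Ccr7 ligand, had its peak elsewhere, with 12.9 TPM in tumor 9, 1.11 TPM in tumor 4 and values under 1 TPM in the other 10. The pseudogene rows Ccl19-ps1 and Ccl19-ps3 had 25.9 and 18.3 TPM in tumor 9 and at most 2.30 TPM elsewhere, so reads of these loci may be shared with Ccl19. Cxcl13, which attracts B cells through Cxcr5, ran from 1.56 TPM in tumor 2 over a median of 16.6 TPM to 84.6 TPM in tumor 10. The tumor with the most B lymphocyte transcripts thus had the least Cxcl13. Cxcl12, the stromal ligand of Cxcr4, ran from 3.51 TPM in tumor 1 over a median of 13.6 TPM to 41.4 TPM in tumor 4, with 41.3 TPM in tumor 6 and 39.1 TPM in tumor 8.

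Among the mucosal and skin ligands, Ccl25, which attracts Ccr9-bearing cells to the gut, was at 9.75 TPM in tumor 9, had a median of 19.1 TPM and reached 46.1 TPM in tumor 3. Tumor 2, at 13.6 TPM, was not its lowest. It overlaps Elavl1 on the opposite strand, which had a median of 38.9 TPM. Ccl27a, a skin ligand of Ccr10, ran from 1.44 TPM in tumor 7 over a median of 10.4 TPM to 29.5 TPM in tumor 9, and overlaps Il11ra1, at a median of 24.8 TPM, on the opposite strand. Ccl27b shares 51.6% of its 75-base stretches with Ccl27a and did not exceed 3.64 TPM.

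Of the other ligands, Cxcl14, an epithelial and fibroblast chemokine, ran from 2.36 TPM in tumor 2 over a median of 32.2 TPM to 127 TPM in tumor 4. Cxcl17, a mucosal ligand, was at 19.2 TPM in tumor 3, 16.8 TPM in tumor 1 and 16.1 TPM in tumor 4, at most 5.55 TPM elsewhere, and was listed at 0 in tumors 2 and 11. Xcl1, which NK and T cells use to attract cross-presenting dendritic cells, reached 15.6 TPM in tumor 8, the tumor with the highest NK marker sum, and 3.53 TPM in tumor 10. It was under 3 TPM in the other 10 tumors, with a median of 0.495 TPM.

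The receptors of these ligands were also detected, several of them in 1 tumor only. All 18 signalling receptors reached 1 TPM in some tumor, against 43.4% of all genes, and 3 of them did so in all 12, against 25.2%. Ccr4, Ccr8, Ccr9, Cxcr5 and Xcr1 reached 1 TPM only in tumor 9, Ccr3 only in tumor 2 and Cxcr1 only in tumor 6. The 5 atypical receptors, which bind chemokines without classical signalling, also all reached 1 TPM in some tumor, and none did in all 12. Of the 18 signalling receptors, 10 were highest in tumor 9, among them Cxcr4 (19.4 TPM in tumor 1 to 214 TPM in tumor 9), Ccr6 (19.7 TPM) and Cxcr6 (18.4 TPM). Of the 10 signalling receptors with a mean of 1 TPM or more over the tumors, 5 (50%) were highest there, against 14.1% of all such genes. Tumor 9 also had the highest T lymphocyte sum, 81.7 TPM, and the second highest B lymphocyte sum, 333 TPM. Of the 5 dendritic markers 4 were highest there, Xcr1 among them, while Itgax was highest in tumor 7. The part of these cells in the receptor values was not tested. Ccr1, the receptor for Ccl9 and Ccl6, was not among the receptors highest in tumor 9. It had 23.6 TPM there, within a range from 0.676 TPM in tumor 2 to 52.9 TPM in tumor 8. The scavenger receptor Ackr3, which removes Cxcl12, ran from 0.517 TPM in tumor 2 and 1.39 TPM in tumor 9 to 77.9 TPM in tumor 8.

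To ask whether a ligand and its receptor varied together, 10 textbook pairs were compared over 9 mice, of which 9 are given here, on the log2(TPM + 1) scale. Ccl2 and Ccr2 gave Pearson's r = 0.96 (two-sided exact permutation of the pairings, p = 0.00033, adjusted p = 0.0033 by Benjamini-Hochberg over the 10 pairs) and Spearman's rho = 0.93 (exact p = 0.00075, adjusted p = 0.0075). Ccr2 itself ran from 3.17 TPM in tumor 2 to 54.1 TPM in tumor 8, the same tumors that bounded Ccl2. Without both of these tumors the value was r = 0.75 over 7 mice (exact permutation p = 0.053), so the call did not hold there, with fewer mice. With only tumor 2 or only tumor 8 left out, r was 0.95 (exact permutation, adjusted p = 0.018 each).

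For Cxcl1 and Cxcr2 the mice fell into separate clusters, tumors 2 and 9 being low in both, so the pooled r of 0.88 (exact permutation p = 0.0023, adjusted p = 0.011; rho = 0.82, exact p = 0.011, adjusted p = 0.054) is not read as a relation. Cxcr2, the neutrophil receptor, was listed at 0 in tumor 9 and at 0.105 TPM in tumor 2, and lay between 2.37 and 17.4 TPM elsewhere. Among the other 7 mice r was 0.65 (exact permutation p = 0.12). The mice also fell into separate clusters by Cxcl9, and none of these reached the minimum of 6 mice used for a correlation, so no value within a cluster is given for Cxcl9 and Cxcr3. The pooled r was 0.83 (exact permutation p = 0.0057, adjusted p = 0.019), with rho = 0.78 (exact p = 0.017, adjusted p = 0.057). Without tumors 2 and 9 it was 0.81 (exact permutation p = 0.025 over 7 mice), a value that still spans separate clusters. Cxcr3 was highest in tumor 9 (8.74 TPM), tumor 8 (4.57 TPM) and tumor 10 (4.06 TPM), which were 3 of the 4 tumors highest in Cxcl9, and was at 0.333 TPM in tumor 2.

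**Figure D4:**
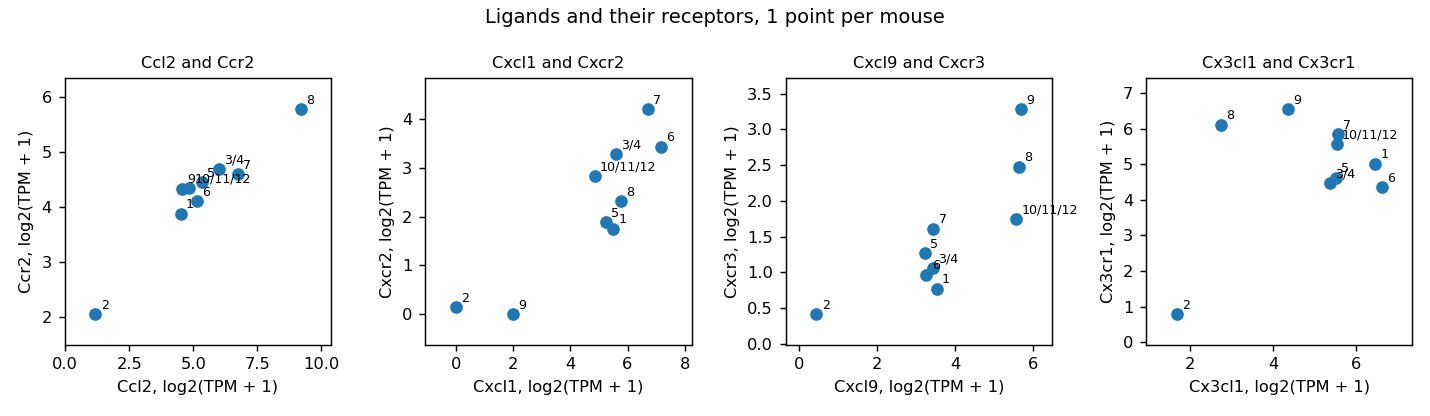
Ligand (x axis) against receptor (y axis), both as log2(TPM + 1), with 1 point per mouse labelled by its tumor numbers. Ccl2 and Ccr2 are both lowest in tumor 2 and highest in tumor 8, tumors 2 and 9 lie apart from the other 7 mice in Cxcl1 and Cxcr2, the mice form groups by Cxcl9, and tumors 8 and 9 are low in Cx3cl1 and high in Cx3cr1.

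Of the remaining pairs given here, 6 in number, none passed an adjusted p of 0.05 by Pearson's r. Cx3cl1 and Cx3cr1 gave r = 0.43 (exact permutation p = 0.25, adjusted p = 0.31) and rho = -0.10 (exact p = 0.81, adjusted p = 0.81), and r = -0.68 without tumor 2 (exact permutation p = 0.053 over 8 mice). Cx3cr1, a receptor of monocytes, macrophages and NK cells, was high in tumors 9, 10 and 8 (92.8, 85.2 and 68.3 TPM). Cx3cl1 was low in tumors 9 and 8 (19.6 and 5.72 TPM). In tumor 10 Cx3cl1 was at 53.8 TPM, above its median of 44.1 TPM. Cxcl16 and Cxcr6 gave r = 0.48 (exact permutation p = 0.11, adjusted p = 0.19) and rho = 0.72 (exact p = 0.037, adjusted p = 0.087). Without tumor 2 they gave r = 0.81 (exact permutation p = 0.0085 over 8 mice, adjusted p = 0.021). Ccl19 and Ccr7 gave r = 0.51 (exact permutation p = 0.13, adjusted p = 0.19) and r = 0.75 without tumor 2 (exact permutation p = 0.014, adjusted p = 0.029). Ccl22 and Ccr4 gave r = 0.63 (exact permutation p = 0.043, adjusted p = 0.085), Cxcl13 and Cxcr5 r = 0.42 (exact permutation p = 0.29, adjusted p = 0.32) and Cxcl12 and Cxcr4 r = 0.19 (exact permutation p = 0.62, adjusted p = 0.62). Their rho values were 0.56 for Ccl22 (exact p = 0.13, adjusted p = 0.16), 0.70 for Cxcl13 (exact p = 0.043, adjusted p = 0.087), 0.25 for Cxcl12 (exact p = 0.52, adjusted p = 0.58) and 0.66 for Ccl19 (exact p = 0.063, adjusted p = 0.090). With the mice farthest from the median ligand level left out, r was 0.66 for Cxcl16 and Cxcr6, 0.46 for Ccl19 and Ccr7, 0.49 for Ccl22 and Ccr4, 0.38 for Cxcl13 and Cxcr5, 0.08 for Cxcl12 and Cxcr4 and -0.68 for Cx3cl1 and Cx3cr1.

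Tumors of the same mouse were compared gene by gene, by the mean absolute difference in log2(TPM + 1) over the 4 same-mouse pairs against that over the 62 other pairs. No gene of the 16779 tested passed a Benjamini-Hochberg adjusted p of 0.05 in the exact permutation of the animal labels (percent called 0, smallest adjusted p = 0.13), while 26.4% had an unadjusted p of at most 0.05. Of 33 ligands tested, 8 (24.2%) had such an unadjusted p, against that background of 26.4%. This comparison depends on single tumors. The count was 5 of 33 (15.2%) against 22.0% of genes without tumor 2, 3 (9.09%) against 12.0% without tumor 3, 2 (6.06%) against 12.3% without tumor 4, 4 (12.1%) against 19.2% without tumor 12 and 11 (33.3%) against 17.0% without tumor 11. With all tumors the 8 were Ccl22, Ccl27a, Ccl5, Ccl11, Ccl8, Cx3cl1, Ccl17 and Cxcl12. The difference was smaller within a mouse for 31 of the 33 ligands, against 91.3% of all genes. The median of within minus between was -0.81 for the ligands and -0.29 for all genes. These medians are not scaled to how much a gene varies between tumors, so they do not rank the ligands against all genes. Ccl17, high in both tumors of one mouse, differed by 0.45 on the log2 scale within mice and by 2.12 between other tumors (exact permutation p = 0.045, adjusted p = 0.18). Ccl5 differed by 0.28 within and 1.80 between (exact permutation p = 0.017, adjusted p = 0.15). The ligands were not alike in every tumor of a mouse, as Cxcl1 was at 13.5, 43.3 and 36.2 TPM and Cxcl3 at 22.8, 0.527 and 0.970 TPM in tumors 10, 11 and 12.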

How the data were processed

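The authors trimmed paired-end reads from stranded mRNA libraries, aligned them to GRCm38 and deposited TPM values per Ensembl gene and tumor. The submitters' processing notes name HISAT and StringTie 2.1.6. TPM is relative, so a few abundant genes lower all others. Columns were assigned to tumors through the animal and suffix in their names. The members, gene lists and pairs were chosen with earlier results of these data known. Levels are given as TPM, and errors as SD over mice after averaging the tumors of a mouse. Genes were named if they reached 10 TPM in a tumor or belonged to a ligand-receptor pair, and the other members are given by range. Same-mouse similarity was tested on log2(TPM + 1) by all 7920 assignments of the animal labels, and correlations by all 362880 pairings of 9 mice. The adjustment covers all 10 pairs, 1 of which is not reported here, nor is 1 interferon-response gene. Scripts were tested on simulated data. Nothing in the labels says how the tumors of one mouse are related, and p-values over mice measure the spread between these samples. Gene positions came from GENCODE vM21, a different release from that of the study, and promoters from RefSeq. Alternatives were other TPM limits, a pseudocount of 0.1, other filters, upper-quartile scaling, each tumor as a unit and leaving out each tumor or mouse. Python 3.11.15, numpy 2.4.6, pandas 2.3.3 and matplotlib 3.10.9 were used.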

Additional observations from a re-analysis of the deposited data

Results flagged for a closer look

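Of 31 ligands examined per mouse on the log2(TPM + 1) scale, 7 had 1 value set far apart from its nearest neighbour (Dixon's ratio), where chance gives about 1 in 20. Over all 13432 genes that reached 10 TPM in some tumor the share was 20.6%, against 22.6% of the ligands. Tumor 2 was far below the rest in Cxcl16 (2.90, nearest mouse 7.29), Cxcl10 (0.12, nearest 4.74) and Cxcl9 (0.44, nearest 3.22). Tumor 8 was far above the rest in Ccl21c (5.41, nearest mouse 2.25), Ccl21b (5.26, nearest 2.40) and Xcl1 (4.06, nearest 1.99), and the Ccl21 rows are near-identical copies. Tumor 9 was far above the rest in Ccl19 (3.80, nearest mouse 0.63). Ligands were examined only if they reached 10 TPM in some tumor. Ccl19 did so only in tumor 9 and Xcl1 only in tumor 8, so their selection used the same values, and these are descriptions and no test. The 7 are not independent, since 3 come from tumor 2, 3 from tumor 8 and 1 from tumor 9. No explanation was tested.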

How the results depend on the processing

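The number of ligands expressed in some tumor stayed within 1.5 times of 36 under all 16 alternatives. The number expressed in every tumor, 15 at 1 TPM, was 4 at 5 TPM and 0 at 10 TPM. With each mouse left out in turn, r ranged from 0.95 to 0.97 for Ccl2 and Ccr2 and from 0.85 to 0.91 for Cxcl1 and Cxcr2. It ranged from 0.80 to 0.87 for Cxcl9 and Cxcr3, where the lowest, without tumor 8, no longer passed (adjusted p = 0.082, exact permutation). The pairs that passed only without 1 mouse were Ccl19 and Ccr7 (0.31 to 0.75), Cxcl16 and Cxcr6 (0.46 to 0.81), both without tumor 2, and Ccl22 and Ccr4 (0.18 to 0.84), without tumors 3 and 4. Cx3cl1 and Cx3cr1 ranged from -0.68, without tumor 2, to 0.67, and Cxcl12 and Cxcr4 from -0.084, without tumor 1, to 0.38. By unadjusted p, Ccl22 and Ccr4 would also have passed. The cause of these changes was not tested. Same-mouse similarity called 0 genes under all 16 alternatives. Without tumor 3 or tumor 4 the smallest p that the exact permutation could give was 0.0061. A gene could then pass only if very many genes shared that p, so these 0 counts do not show stability. Pooled values for the Cxcl1 and Cxcl9 pairs span separate clusters of mice. No paired analysis was possible because every tumor belongs to the same condition. Depth is unknown, so how far a TPM under 1 differs from 0 is not known.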
